A study of Mus musculus with 16 samples.

Results

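De novo lipogenesis builds fatty acids from acetyl-CoA, and the genes described here are 8 enzymes of that route and the genes of 2 transcription factors that drive it: Acly, Me1, Acaca, Acacb, Fasn, Elovl6, Scd1, Scd2, Srebf1 and Mlxipl. The 10 genes were found by name among the 23235 gene names of the mRNA table, the counts of their 59 transcripts were summed per gene, and all 10 were among the 15364 genes that passed the filter on low counts. They were picked from the known pathway after earlier group comparisons of the same mice had been seen, so their differences between groups are given as a description, without P values of single genes. Where the main test over all genes is used to count how many of the 10 it called, the share of all genes called stands beside the count. Counts of the 10 from other fits often stand without such a share. Nothing is read from any of these counts. RNA came from skeletal muscle of 16 male C57BL/6J mice, 1 library per mouse, with 4 mice in each of 4 groups. Control mice received a normal diet. HFD mice received a diet with 60% fat for 8 weeks from an age of about 6 weeks, the age at purchase, and the HFD + RSV and HFD + MET groups received the same diet and then resveratrol (RSV, a plant polyphenol) or metformin (MET, a glucose-lowering drug) for 6 weeks. The mice carried no transgene according to the labels, and the muscle sampled and the metformin dose were not given in the sources used here.

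A few properties of the libraries touch the results. Total counts per mouse over both deposited tables ranged from 20281801 to 34021101. The 8 skeletal muscle markers summed to between 59590 and 114800 CPM, the counts scaled to library size, whereas Sag, a marker of the retina, which 1 of the label protocols names as the tissue, stood at no more than 1.13 CPM. Control mouse 3 and HFD + MET mouse 3 stood apart, with the highest sums of white adipocyte markers (5374 and 5052 CPM, against 261 to 2020 CPM in the other 14 mice) and the lowest sums of muscle markers (61910 and 59590 CPM). Myh7, the myosin gene of slow muscle fibres, stood at 2.81, 917, 457 and 523 CPM in control mice 1 to 4 and between 2.71 and 59.4 CPM in HFD mice, so control mouse 1 was low in Myh7 like the HFD mice. All 4 HFD mice shared a leading number in their labels that no other mouse carried, and what that number stands for was not given, so it cannot be told apart from the diet alone. Some mice of the study were injected with insulin shortly before muscle was taken, and whether the sequenced mice were among them was not given in the sources used here.

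In lipogenic cells, citrate leaves the mitochondrion and ATP citrate lyase (Acly) cleaves it to acetyl-CoA. Acetyl-CoA carboxylase then makes malonyl-CoA, and fatty acid synthase (Fasn) joins malonyl-CoA units into palmitate with NADPH, part of which comes from malic enzyme (Me1). Palmitate is elongated by Elovl6 and given its first double bond by stearoyl-CoA desaturases (Scd1 and Scd2). SREBP-1, encoded by Srebf1, and ChREBP, encoded by Mlxipl, switch these genes on in response to insulin and to glucose. Liver and fat are the main sites of the route, while in muscle fibres malonyl-CoA made by Acacb is known mainly as an inhibitor of fatty acid entry into mitochondria.

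The promoter windows of Acaca, Fasn, Acly and Elovl6, the genes whose diet difference passed the call rule below, are shown first, as the stretches of DNA around annotated starts of their transcripts. Each window is from RefSeq on build GRCm38.p6 and runs 5′ to 3′ on the gene's own strand, from 250 bases before the start to 50 bases from it, with capitals marking matches to any of 4 motifs. The motifs searched on both strands were the E-box CACGTG, a sterol response element written TCACNCCAC, CCAAT, and the GC-box GGGCGG. Windows for 8 of the 10 genes were held in the RefSeq table, 12 windows in all, while Scd1 and Scd2 had none there. The Acaca window, chr11:84195188-84195487 on the plus strand, spans the annotated start of transcript ENSMUST00000020843, to which most control Acaca counts were assigned. All 9026 exonic bases of that transcript also lie in ENSMUST00000103201, which starts 22316 bases further upstream. Whether transcription starts in this window was not tested, so its letters are not read as those of a promoter. The Fasn window is chr11:120824498-120824797 on the minus strand. The Acly window is chr11:100527951-100528250 on the minus strand. The Elovl6 window is chr3:129532136-129532435 on the plus strand.
Acaca: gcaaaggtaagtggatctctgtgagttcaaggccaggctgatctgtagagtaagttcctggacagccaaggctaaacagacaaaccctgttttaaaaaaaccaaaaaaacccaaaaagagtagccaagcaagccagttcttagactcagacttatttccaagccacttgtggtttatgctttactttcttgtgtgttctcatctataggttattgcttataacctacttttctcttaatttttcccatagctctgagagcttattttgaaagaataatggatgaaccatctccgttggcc
Fasn: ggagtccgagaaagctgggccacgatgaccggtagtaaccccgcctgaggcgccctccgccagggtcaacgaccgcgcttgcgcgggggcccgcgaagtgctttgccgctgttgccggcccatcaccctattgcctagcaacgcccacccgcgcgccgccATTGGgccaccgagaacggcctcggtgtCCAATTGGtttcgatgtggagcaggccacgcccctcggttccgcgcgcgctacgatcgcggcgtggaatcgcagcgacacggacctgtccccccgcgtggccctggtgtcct
Acly: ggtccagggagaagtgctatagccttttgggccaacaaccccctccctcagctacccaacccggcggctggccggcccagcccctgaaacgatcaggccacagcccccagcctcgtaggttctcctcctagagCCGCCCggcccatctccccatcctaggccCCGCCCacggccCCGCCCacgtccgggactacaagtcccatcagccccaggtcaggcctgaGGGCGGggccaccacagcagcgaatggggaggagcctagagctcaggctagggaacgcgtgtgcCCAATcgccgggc
Elovl6: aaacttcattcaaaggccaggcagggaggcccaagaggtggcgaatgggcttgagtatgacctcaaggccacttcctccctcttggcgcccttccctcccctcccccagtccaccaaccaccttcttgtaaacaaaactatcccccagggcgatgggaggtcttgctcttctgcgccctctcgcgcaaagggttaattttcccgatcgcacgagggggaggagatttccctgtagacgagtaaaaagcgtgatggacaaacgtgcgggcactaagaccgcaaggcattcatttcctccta

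The Acaca and Elovl6 windows held none of the 4 motifs. Fasn held 3 CCAAT matches, at positions -90, -62 and -59 from the start, 2 of which overlap in the printed sequence. Acly held 4 GC-boxes and 1 CCAAT match. Base composition also differed, with 39.7% G and C in the Acaca window against 69.3% for Fasn, 68.7% for Acly and 55.7% for Elovl6, where the median of all 32851 windows was 52.7%. Among the 12 windows, CCAAT was found in 7 and the GC-box in 5, while over all 32851 windows the shares were 37.4% and 35.7%. The E-box was found in 1 window, that of the upstream start of Mlxipl, 98 bases before it, and the sterol response element in 1, that of the other Mlxipl start, against 7.15% and 1.24% of all windows. These matches describe letters in the windows and do not show binding.

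Levels of Fasn, Scd1, Acaca, Acly and Elovl6 were far lower in HFD than in control muscle, while Me1 and Mlxipl stood at like levels in both. On the per-length scale of the deposited FPKM values, summed over the transcripts of a gene, Scd1 (495 ± 402, mean ± SD, n = 4) and Fasn (318 ± 285) had the highest levels of the 10 in the control group, with a spread so wide that their order is not resolved. Acacb (130 ± 30.9) and Me1 (87.5 ± 27.4) followed, then Acaca (38.6 ± 23.8), Acly (37.7 ± 21.5), Srebf1 (26.4 ± 7.49), Mlxipl (23.0 ± 2.64), Elovl6 (17.9 ± 16.7) and Scd2 (8.73 ± 3.16), where neighbours overlapped within their spread. In the HFD group the order by FPKM was Acacb (83.1 ± 11.2), Me1 (80.6 ± 3.13), Scd1 (36.6 ± 23.7), Mlxipl (20.5 ± 1.17), Srebf1 (19.8 ± 5.52), Fasn (6.31 ± 1.78), Acly (6.06 ± 1.05), Acaca (5.67 ± 1.20), Scd2 (5.49 ± 0.809) and Elovl6 (0.383 ± 0.182). Fasn, Acly, Acaca and Scd2 could not be ordered within their spread in HFD muscle.

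The first comparison asked which genes differed between HFD and control muscle. At an adjusted P under 0.05, edgeR's quasi-likelihood test called 4 of the 10 genes, Acaca, Acly, Fasn and Elovl6, all lower in the HFD group, where 2.43% of all genes tested were called in either direction and 1.11% were called lower. By the criteria the study used, P under 0.05 and an absolute log2 fold change above 1, Scd1 was added to make 5 of 10, against 4.94% of all genes. The HFD and control mice did not overlap for 6 of 10, the same 5 and Acacb, against 18.3% of all genes. Because earlier values of this contrast were known when the genes were picked, nothing is read from these counts. The median log2 fold change of the 10 genes was -1.61, with 8 lower and 2 higher, beside a median of -0.02 over all genes tested, 52.4% of which were lower.

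**Figure D1:**
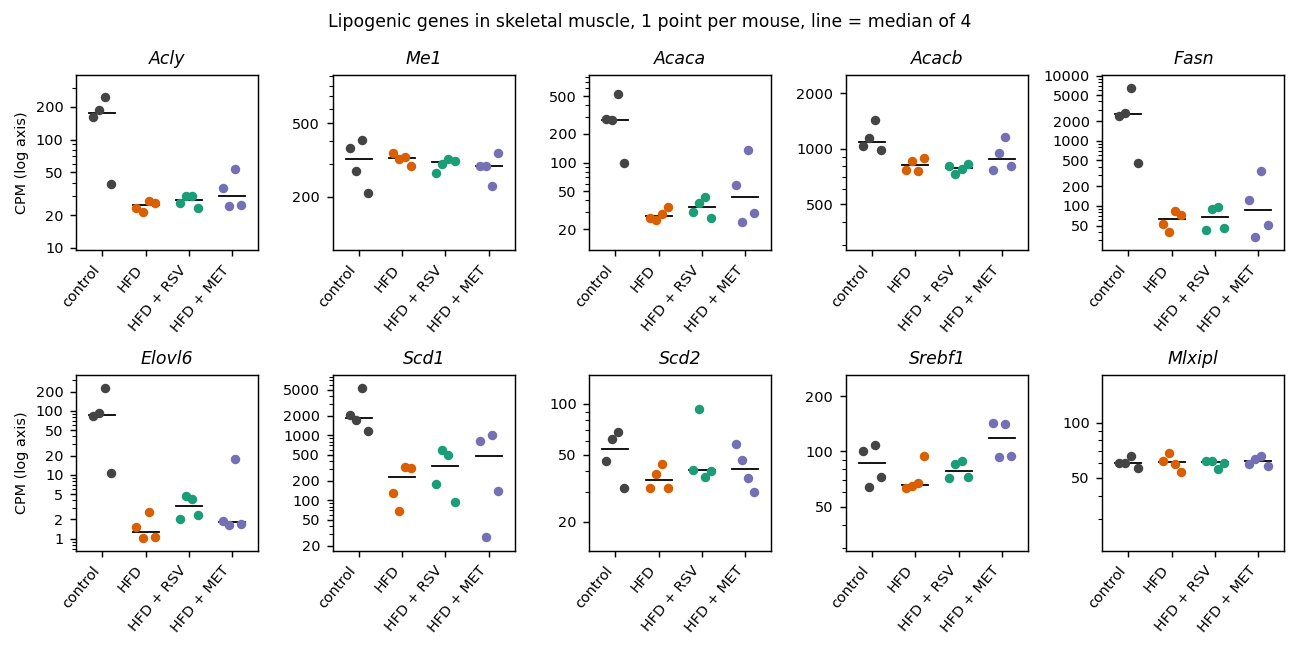
Level of each of the 10 genes in every mouse, in CPM on a log axis, by group, with 1 point per mouse and a line at the median of 4 mice. For Acly, Acaca, Fasn, Elovl6 and Scd1 all HFD points lie below all control points, and for Me1, Scd2, Srebf1 and Mlxipl the groups overlap.

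Among the genes that supply substrate, Acly differed and Me1 did not. Acly stood at 161, 189, 249 and 39.0 CPM in control mice 1 to 4 and at 23.4, 21.4, 26.9 and 26.0 CPM in the HFD mice. The lowest control mouse, mouse 4, was thus close to the highest HFD mouse, and the other 3 controls were far above. The difference of HFD minus control was -2.71 ± 0.42 (log2 fold change ± SE), or 6.54-fold lower. Me1 stood at 365, 275, 406 and 208 CPM in controls and between 294 and 343 CPM in HFD mice, so that the HFD mice lay within the control range. Its difference was 0.04 ± 0.17, with an approximate 95% interval of -0.31 to 0.38.

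The carboxylases split. Acaca, the cytosolic form that feeds fatty acid synthesis, stood at 284, 278, 526 and 98.4 CPM in controls and at 26.1, 24.9, 29.1 and 34.0 CPM in HFD mice, a difference of -3.38 ± 0.55, or 10.4-fold lower. Acacb, the form at the mitochondrial outer membrane, stood at 1033, 1148, 1421 and 981 CPM in controls and at 769, 854, 752 and 886 CPM in HFD mice. The groups of both genes did not overlap, but Acacb was lower by only 1.41-fold (-0.49 ± 0.15) and did not reach an adjusted P under 0.05.

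Fasn, whose product makes palmitate, reached the highest count among the 10 genes, 165564 in control mouse 3. It stood at 2400, 2697, 6471 and 454 CPM in controls and at 53.7, 39.3, 84.1 and 73.0 CPM in HFD mice. Control mouse 4 was the lowest control, still above every HFD mouse. The difference was -5.59 ± 0.88, or 48.1-fold lower. Elovl6, the elongase of palmitate, stood at 83.5, 91.3, 229 and 10.7 CPM in controls, in the same order of mice as Fasn, and at 1.51, 1.04, 2.61 and 1.06 CPM in HFD mice, the latter from at most 59 counts. Its difference was -6.05 ± 1.02, or 66.4-fold lower.

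Of the desaturases, Scd1, the main form in fat and liver, stood at 2044, 1715, 5334 and 1147 CPM in controls and at 132, 68.4, 328 and 318 CPM in HFD mice. Its difference was -3.60 ± 0.99 and the groups did not overlap, but it was not called in the fit of 16 mice. It was called by DESeq2 (-3.59 ± 0.90), without the HFD + MET group (-3.60 ± 0.75), and when HFD + MET mouse 2 or 3 alone was left out, and so was Acacb in these fits except the one without HFD + MET mouse 2. Scd2, the form known from brain, stood at 46.0, 61.8, 67.7 and 31.8 CPM in controls and between 31.7 and 44.2 CPM in HFD mice. The groups overlapped and the difference was -0.51 ± 0.31.

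The transcription factor genes differed little. Srebf1 stood at 101, 63.9, 109 and 72.9 CPM in controls and at 63.3, 64.7, 67.4 and 94.4 CPM in HFD mice (-0.26 ± 0.20). Mlxipl stood between 56.9 and 65.5 CPM in controls and between 53.9 and 68.7 CPM in HFD mice (0.01 ± 0.08, interval -0.15 to 0.16). The mRNA of both regulators therefore overlapped between diets while Fasn, Acaca, Acly and Elovl6 did not.

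**Figure D2:**
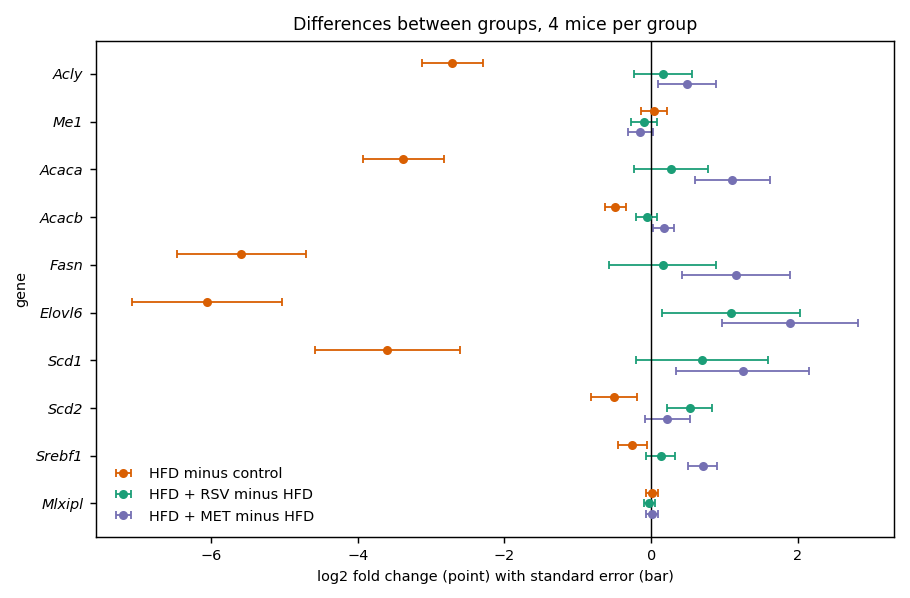
Log2 fold change with its standard error for each gene in HFD minus control, HFD + RSV minus HFD and HFD + MET minus HFD, from 1 fit of 16 mice with 4 per group. The diet differences reach from -6.05 for Elovl6 to 0.04 for Me1, whereas those of the drug groups against HFD lie between -0.15 and 1.89.

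The calls depended on single mice. Without control mouse 2, HFD mouse 1 or HFD mouse 2, the genes called at an adjusted P under 0.05 in edgeR fell from 4 to 2, 1 and 2, with log2 fold changes that stayed between -3.41 and -3.32 for Acaca and between -6.11 and -5.90 for Elovl6. Fasn lost its call without HFD mouse 1 (log2 fold change -5.52), and Acly was called whichever of the 16 mice was left out. Over all genes, the number called in this comparison fell from 374 to 16, 31 and 37 without control mouse 2, HFD mouse 1 or HFD mouse 2. It moved between 16 and 1588 when 1 mouse was left out.

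Acaca is shown by transcript, because its counts were assigned to 9 annotated transcripts that overlap to different degrees. In control mice 1 to 4, 4583, 7467, 12098 and 1654 counts were assigned to ENSMUST00000020843, which starts at chr11:84195438 and has 54 exons. It took 90.5%, 86.5%, 90.0% and 87.4% of the Acaca counts of these mice. In all 4 HFD mice, all 4 HFD + RSV mice and 3 of 4 HFD + MET mice it was listed at 0, and in HFD + MET mouse 3 it had 2683 counts, 84.1% of that mouse's Acaca counts. Against a floor of 3 counts per library in HFD mice, the control mean of 263 CPM was 1980-fold higher and the lowest control mouse 642-fold higher. These are ratios of assigned counts and no bound on the level of the transcript, which has no bases of its own. Acaca as a whole gene was 10.4-fold lower in HFD mice.

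The other long transcript, ENSMUST00000103201, starts 22316 bases further upstream. Its counts were 168, 414, 693 and 47 in controls, 427 to 526 in HFD mice, 427 to 728 in HFD + RSV mice and 785, 437, 49 and 584 in HFD + MET mice. The low values thus fell in control mouse 4 and HFD + MET mouse 3. All 9026 exonic bases of ENSMUST00000020843 also lie in ENSMUST00000103201, so a fragment is given to the first by the counter's model and not by bases of its own. Counts of the other 8 transcripts together came to 32.4 ± 17.0 CPM in controls and 28.5 ± 4.06 CPM in HFD mice, with ranges of 12.4 to 52.6 and 24.9 to 34.0 CPM that overlapped. These 8 did not move alike. ENSMUST00000183887, all 684 bases of which also lie in both long transcripts, had 52, 110, 148 and 19 counts in controls and 12 to 14 in HFD mice (-2.51 ± 0.55), without overlap. ENSMUST00000183548, a retained-intron transcript, had 129 to 576 counts in controls and 83 to 150 in HFD mice (-1.30 ± 0.43), whereas ENSMUST00000103201 differed by 0.65 ± 0.70.

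**Figure D3:**
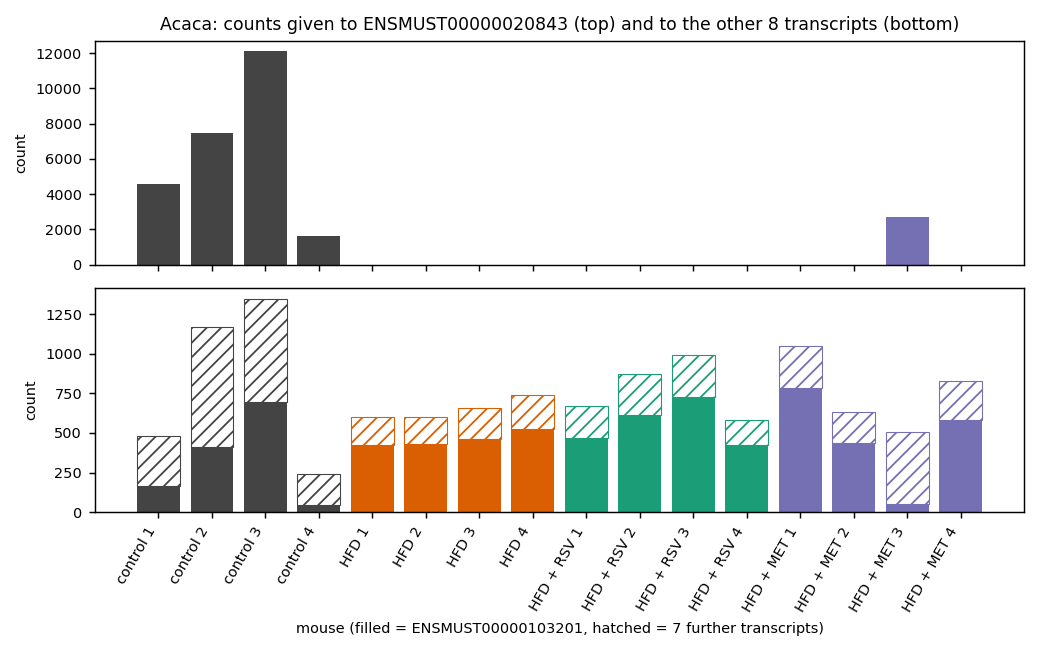
Acaca counts in each mouse assigned to ENSMUST00000020843 (top) and to the other 8 transcripts (bottom, with ENSMUST00000103201 filled and the remaining 7 hatched), on linear axes of different height. The 4 control mice and HFD + MET mouse 3 have counts in the top panel, from 1654 to 12098, and the other 11 mice have 0.

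Fasn showed a division that was alike only in part. Its long transcripts ENSMUST00000055655 and ENSMUST00000206589 took 21793 and 20812 counts in control mouse 1 and 4099 and 4081 counts in HFD + MET mouse 3. Unlike ENSMUST00000103201 of Acaca, ENSMUST00000055655 was itself lower in HFD mice, at 385 to 1879 counts against 4228 to 82882 in controls. In 9 of the other mice ENSMUST00000206589 was listed at 0, and in HFD mouse 2 and HFD + RSV mouse 1 it had 535 and 258 counts. How far these splits follow the counter's model was not tested. For Mlxipl, the upstream start is that of ENSMUST00000202431, which is annotated as a processed transcript that encodes no protein and starts 17028 bases before ENSMUST00000005507. It had 5, 10, 5 and 0 counts in controls and 0 to 2 counts in the other 12 mice, too few for a comparison.

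Adipocyte RNA varied between these muscle samples and moved with several of the genes. In bulk tissue, fewer cells of a type and less RNA per cell cannot be told apart. The 10 white adipocyte markers summed to 1473, 1223, 5374 and 2020 CPM in controls and to 316, 262, 619 and 1201 CPM in HFD mice. None of the 10 was at 0 in all mice, and 9 of 10 had a lower fitted level in HFD mice, none at an adjusted P under 0.05 in edgeR, 5 at an unadjusted P under 0.05, where 24.2% of all genes were, and 0 called by DESeq2. The other marker, Lep, which is part of the sum, had a higher fitted level in HFD mice (1.40 ± 1.14, edgeR adjusted P = 0.475). It stood at 2.9 to 26.4 CPM in controls and 4.32 to 58.6 CPM in HFD mice, which overlapped. In the edgeR fit without the HFD + MET group 2 of the 10 were called lower, Fabp4 (-1.92 ± 0.54, adjusted P = 0.044) and Lipe (-1.65 ± 0.44, adjusted P = 0.0391). Adipoq, which encodes the adipocyte hormone adiponectin, stood at 104, 69.8, 352 and 142 CPM in controls and at 20.5, 11.2, 61.4 and 94.1 CPM in HFD mice. Of 6 brown adipocyte markers, 2 were called lower in HFD mice in edgeR, Cidea (-6.30 ± 1.53, adjusted P = 0.0474) and Elovl3, and 4 by DESeq2. As Elovl3 passed the filter on low counts only through the control mice, nothing is read from its call in either test. Ucp1, the uncoupling protein, stood at 11.9, 39.9, 408 and 3.12 CPM in controls and at most 1.06 CPM in HFD mice, whereas Cox8b, a cytochrome c oxidase subunit, had a higher fitted level in HFD mice (0.32 ± 0.27, adjusted P = 0.488). The sums of the 6 overlapped, at 83.2 to 899 CPM in controls and 61.2 to 110 CPM in HFD mice.

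Pairs of mice with like marker levels, picked after their values were seen, differed in Fasn to different degrees. Control mouse 3 and HFD + MET mouse 3 had 352 and 355 CPM of Adipoq and 6471 and 348 CPM of Fasn. Control mouse 2 and HFD mouse 4 had 1223 and 1201 CPM of summed white adipocyte markers and 2697 and 73.0 CPM of Fasn. Control mouse 4 and HFD + MET mouse 1 had sums of 2020 and 2002 CPM and lay closer together, at 454 and 125 CPM of Fasn. Per unit of that marker sum, Fasn came to 1.63, 2.21, 1.20 and 0.225 in controls and to between 0.061 and 0.170 in the 12 mice on HFD, so controls remained apart. Acaca per unit of the sum came to 0.0487 to 0.227 in controls and 0.0283 to 0.0951 in HFD mice, and Acly to 0.0193 to 0.155 and 0.0217 to 0.0816, so for both the groups overlapped. Elovl6 came to 0.0053 to 0.0747 in controls and at most 0.00479 in HFD mice. Control mouse 4 was the lowest control and lay below HFD + RSV mice 2 and 4 (0.00621 and 0.00652) and HFD + MET mouse 2 (0.00618). Scd1 per unit of the sum came to 0.568 to 1.40 in controls, 0.261 to 0.530 in HFD mice and 0.262 to 0.782 in HFD + RSV mice, where controls and HFD + RSV mice overlapped.

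Both alternatives on adipocyte RNA were chosen after the data had been seen. Without control mouse 3 and HFD + MET mouse 3 the same 4 genes were called, and the log2 fold changes were -4.89 ± 0.65 for Fasn, -2.95 ± 0.37 for Acaca, -2.42 ± 0.38 for Acly and -5.32 ± 0.64 for Elovl6. With the summed white adipocyte markers as a covariate, Fasn (-4.02 ± 0.57) and Acaca (-2.30 ± 0.37) were called and Acly (-2.19 ± 0.43) and Elovl6 (-4.44 ± 0.83) were not. Scd1 moved most, from -3.60 to -1.41 ± 0.55.

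**Figure D4:**
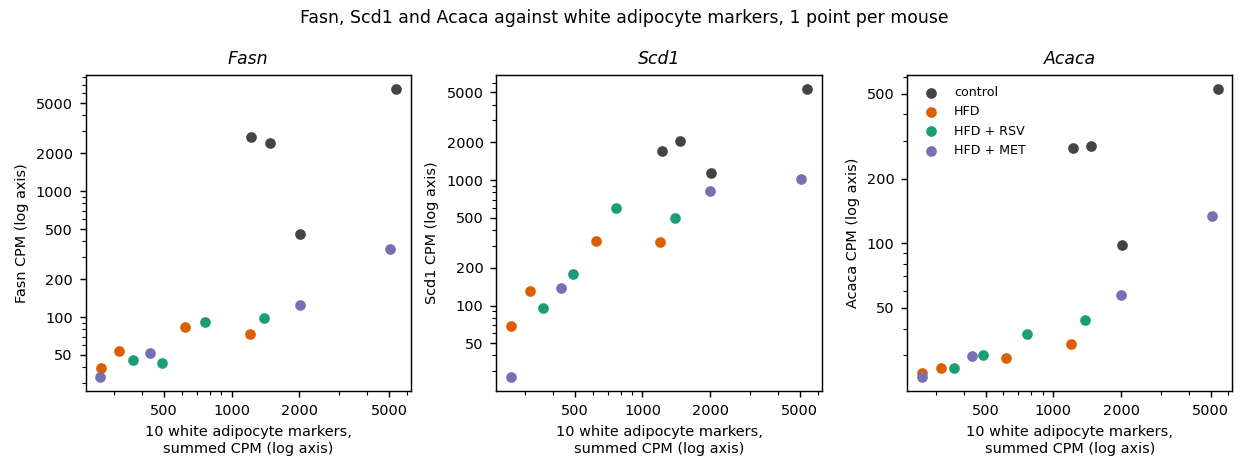
Fasn, Scd1 and Acaca in each mouse against the summed CPM of 10 white adipocyte markers, both on log axes, coloured by group. The control mice lie above mice on HFD with like marker sums for Fasn, by 2697 against 73.0 CPM at sums of 1223 and 1201 CPM and by 454 against 125 CPM at sums of 2020 and 2002 CPM, and the groups lie closer together for Scd1.

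The second comparison asked whether resveratrol changed these genes in mice on HFD. No gene of the 10 was called in HFD + RSV minus HFD by any of the 3 rules, at a background of 0% of all genes at an adjusted P under 0.05, 1.08% by the criteria of the study and 4.20% without overlap. Unadjusted P values in edgeR were under 0.05 for 0 of the 10, where 4.72% of all genes were, and DESeq2 called 0 as well. Fasn stood at 42.8, 91.5, 98.1 and 45.8 CPM in HFD + RSV mice, around the HFD values, with a difference of 0.15 ± 0.72 and an interval of -1.26 to 1.57 that still holds a change of either sign. Acaca stood at 30.1, 37.9, 44.0 and 26.1 CPM (0.27 ± 0.51) and Acly between 23.3 and 30.3 CPM (0.16 ± 0.40). The widest differences were those of Elovl6, at 2.01, 4.73, 4.13 and 2.37 CPM (1.09 ± 0.94), and Scd1, at 178, 596, 498 and 95.1 CPM (0.69 ± 0.90), with intervals that include 0. For Mlxipl the interval was narrow, from -0.18 to 0.13. The median over the 10 genes was 0.16, beside 0.00 over all genes tested.

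The third comparison asked the same of metformin. No gene of the 10 was called at an adjusted P under 0.05 in HFD + MET minus HFD, where 0.013% of all genes were, and none separated the groups, where 3.72% of all genes did. The criteria of the study were met by 1 of 10, Acaca, at a background of 1.76%. Unadjusted P values in edgeR were under 0.05 for 2 of the 10, Acaca and Srebf1, where 8.02% of all genes were, and DESeq2 called none. Acaca stood at 57.6, 23.8, 135 and 29.7 CPM in HFD + MET mice (1.11 ± 0.51), with mouse 3 far above the rest, and at 0.37 ± 0.36 without that mouse and control mouse 3. Fasn likewise stood at 125, 33.4, 348 and 51.5 CPM (1.16 ± 0.73) and Elovl6 at 1.93, 1.61, 17.9 and 1.73 CPM (1.89 ± 0.93), with the same mouse highest. Without the mice of high adipocyte markers these came to 0.16 ± 0.58 and 0.17 ± 0.67. Scd1 ranged most widely within the group, from 26.9 CPM in mouse 2 to 1018 CPM in mouse 3.

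Srebf1 had a higher fitted level in HFD + MET than in HFD mice. Its level was 142, 93.2, 142 and 94.1 CPM in HFD + MET mice, against 63.3 to 94.4 CPM in HFD mice, where only HFD mouse 4 reached into the HFD + MET range. White adipocyte markers summed to 2002, 261, 5052 and 435 CPM in HFD + MET mice 1 to 4, and HFD mouse 4 had the highest sum of its group. After group means were subtracted, the log2 levels of Srebf1 and of this sum had r = 0.819, against 0.904 for Scd1 and 0.747 for Fasn. The part of adipocyte RNA in the Srebf1 level was not tested. The difference of HFD + MET minus HFD for Srebf1 was 0.70 ± 0.20. It was 0.60 ± 0.20 without control mouse 3 and HFD + MET mouse 3 and 0.49 ± 0.13 with the adipocyte covariate, and none of these reached an adjusted P under 0.05. HFD + MET also exceeded HFD + RSV, whose mice stood between 71.7 and 88.5 CPM and did not overlap with it, by 0.57 ± 0.20. This difference did not reach an adjusted P under 0.05 in edgeR either. The share of all genes without overlap in that comparison is not given, so nothing is read from the separation. The most abundant Srebf1 transcript, ENSMUST00000134660, had 1500 to 2077 counts in HFD + MET mice and 811 to 1313 in HFD mice.

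Set against control mice, Acaca, Acly, Fasn, Scd1 and Elovl6 were lower in both drug groups, with smaller fitted differences than in HFD minus control. These comparisons share the control mice. In HFD + MET, Acaca (-2.27 ± 0.52), Acly and Elovl6 (-4.16 ± 0.91) overlapped with control, as HFD + MET mouse 3 lay above control mouse 4. Srebf1 had a higher fitted level in HFD + MET than in control mice (0.44 ± 0.20). In HFD + RSV minus control, 0 of 10 genes were called at an adjusted P under 0.05, where 0.00651% of all genes were, and 5 met the criteria of the study, where 2.72% did. In HFD + MET minus control the counts were 0 of 10, at a background of 0%, and 5 of 10, at a background of 1.63%. The 5 were Acaca, Acly, Fasn, Scd1 and Elovl6 in each. Fasn differed from control by -5.43 ± 0.87 in HFD + RSV and -4.43 ± 0.83 in HFD + MET, and Acly by -2.55 ± 0.41 and -2.22 ± 0.41. Unadjusted P values in edgeR were under 0.05 for 6 and 7 of the 10 genes, against 15.8% and 9.50% of all genes. DESeq2 called 6 and 4, with no share of all genes given for it, so nothing is read from these counts. In HFD + MET minus HFD + RSV no gene of the 10 was called, with 0% of all genes called at an adjusted P under 0.05, an unadjusted P under 0.05 in edgeR for 1, Srebf1, against 4.68% of all genes, and 0 called by DESeq2.

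The rest of the pathway was read from 5 lists of other genes, with P values adjusted over all 15364 genes in edgeR, of which 1.11% were called lower in HFD muscle and 24.2% had an unadjusted P under 0.05. These lists too were chosen with earlier results of these data known, so their calls and P values are given as a description and not as independent support. Of 6 tested genes that supply citrate, acetyl-CoA or NADPH, 1 was called lower in HFD muscle, 0 were called higher, and all 6 had a lower fitted level. It was Slc25a1, the mitochondrial citrate carrier, at 45.1, 36.0, 79.9 and 25.4 CPM in controls and 2.83 to 7.07 CPM in HFD mice (-3.25 ± 0.66, adjusted P = 0.0336, lower in 4 of 4). The NADPH genes Idh1 (-1.37 ± 0.38, adjusted P = 0.0647), Pgd (-1.16 ± 0.35, 0.0791) and G6pdx (-1.65 ± 0.56, 0.103) did not pass in edgeR, and DESeq2 called all 3 lower beside Slc25a1. Slc25a1 was also called without the mice of high adipocyte markers (-2.86 ± 0.54) and with the covariate (-1.81 ± 0.25, adjusted P = 0.0149 in edgeR), and in 10 of the 16 fits that left out 1 mouse.

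Of 14 tested genes for other desaturases and the elongation cycle, 4 were called lower and 0 higher, with a median log2 fold change of -1.07. Elovl5, an elongase of polyunsaturated fatty acids, stood at 34.6, 35.4, 53.5 and 19.6 CPM in controls and 14.1 to 16.2 CPM in HFD mice (-1.25 ± 0.25, edgeR adjusted P = 0.0289). Fads1, a desaturase of polyunsaturated fatty acids, was lower by -1.05 ± 0.24 (0.0418) and Scd3 by -3.21 ± 0.78 (0.0474). Elovl3, an elongase of brown fat and skin that is also among the brown adipocyte markers, stood at 1.52, 5.41, 49.0 and 0.780 CPM in controls and was listed at 0 in 3 of 4 HFD mice, with 0.133 CPM in the other (edgeR adjusted P = 0.0342). Elovl3 passed the filter on low counts only through the control mice, where it was high, so nothing is read from its call. Hacd1, a muscle form of the elongation cycle's dehydratase, had a higher fitted level in HFD mice (0.62 ± 0.22, adjusted P = 0.107). With the adipocyte covariate none of these 4 was called in edgeR (adjusted P from 0.167 to 0.197), and without the mice of high adipocyte markers all but Scd3 (0.0734) were. Of the 16 fits that left out 1 mouse, Elovl5 and Elovl3 were called in 10 each, Fads1 in 5 and Scd3 in 4. DESeq2 called these 4 and also Hacd2 and Hsd17b12 lower.

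Of 14 genes of transcriptional control, 1 was called lower and 0 higher. Thrsp, a small protein that promotes lipogenesis in fat and liver, stood at 82.5, 102, 274 and 27.6 CPM in controls and 8.98 to 13.5 CPM in HFD mice (-3.46 ± 0.78, edgeR adjusted P = 0.0423, and 0.167 with the adipocyte covariate), and was called in 5 of the 16 fits that left out 1 mouse. Insig1, a brake on SREBP processing and itself an SREBP target, did not pass in edgeR (-1.76 ± 0.48, adjusted P = 0.0634) and was called lower by DESeq2. Srebf2, Scap, Mlx, Usf1 and the liver X receptor genes lay between -0.52 and 0.07, none passing. Fitted levels were higher in HFD mice for Usf2 (0.17 ± 0.07, edgeR adjusted P = 0.162), Insig2 (0.24 ± 0.28) and Mlxip (0.28 ± 0.39), which did not pass either. None of 6 tested ChREBP targets outside lipogenesis was called (median -0.51, Txnip -0.51 ± 0.16, edgeR adjusted P = 0.0824), and 2 of the 6 had an unadjusted P under 0.05 in edgeR and DESeq2 called 1, Txnip. None of 7 genes of malonyl-CoA use and mitochondrial fatty acid synthesis was called either, with 3 of 7 at an unadjusted P under 0.05 in edgeR and 1, Mcat, called by DESeq2. Cpt1b, the muscle carnitine palmitoyltransferase that malonyl-CoA inhibits, stood at 389 CPM in controls and 378 CPM in HFD mice (-0.04 ± 0.19). In the edgeR fit without the HFD + MET group, Idh1, Pgd, G6pdx, Hacd2, Hsd17b12, Insig1 and Txnip were also called lower and Hacd1 higher, with adjusted P from 0.0118 to 0.0443.

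**Figure D5:**
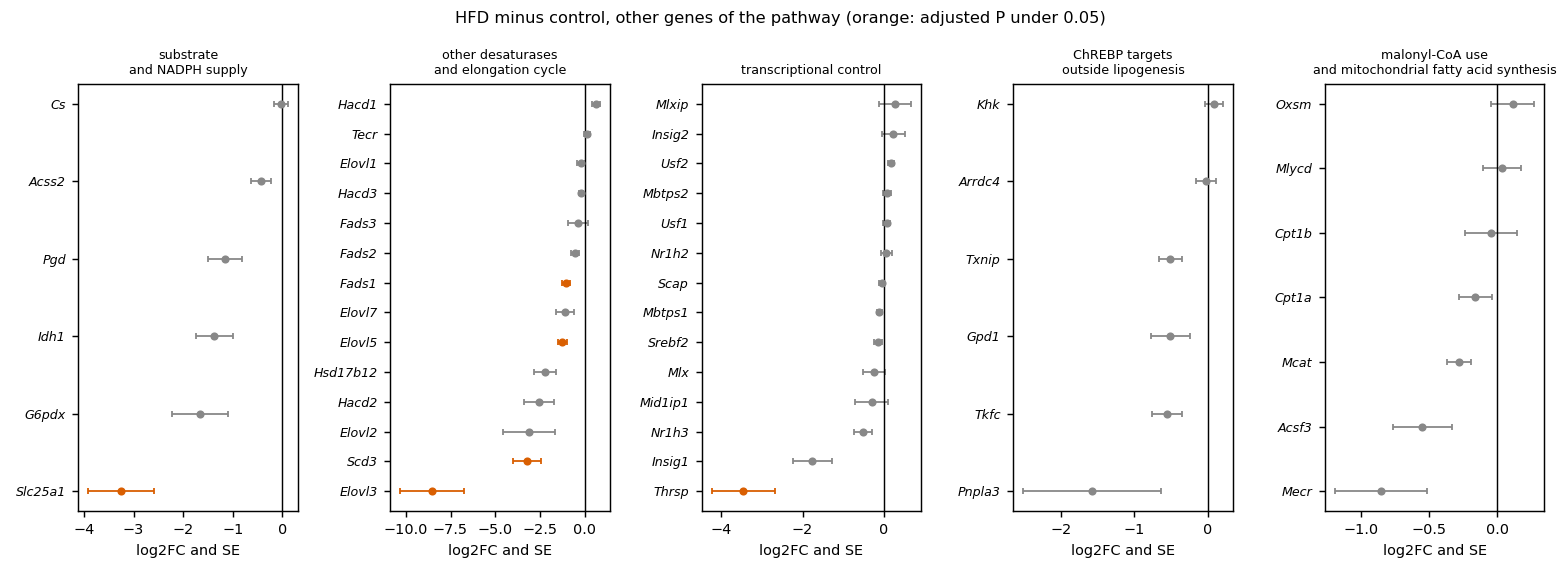
Log2 fold change of HFD minus control with its standard error for the tested genes of 5 pathway lists, 4 mice per group, on axes of different width. Slc25a1, Elovl5, Elovl3, Fads1, Scd3 and Thrsp are coloured as called at an adjusted P under 0.05, all lower in HFD, and the other genes are grey.

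Between the drug groups and HFD, no gene of these 5 lists was called at an adjusted P under 0.05 in edgeR, and 0 were by DESeq2. At an unadjusted P under 0.05 in edgeR, HFD + MET minus HFD held Idh1 (1.04 ± 0.38), Fads1 (0.55 ± 0.24), Nr1h3 (0.60 ± 0.23), Thrsp (1.87 ± 0.74) and Mlxip (-1.32 ± 0.40), and HFD + RSV minus HFD held 1, Elovl7 (1.35 ± 0.48), where 8.02% and 4.72% of all genes had such a P. Mlxip encodes MondoA, a glucose-responsive relative of ChREBP that is abundant in muscle. It stood at 54.2 to 69.1 CPM in HFD + MET mice and at 177, 184, 76.8 and 173 CPM in HFD mice, so these groups did not overlap. Levels as low were also seen in control mouse 4 (58.1 CPM) and in HFD + RSV mice 2 and 3 (63.1 and 68.7 CPM), while the other control and HFD + RSV mice stood between 112 and 184 CPM.

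By Pearson correlation of log2 CPM over the 16 mice, among 12058 other genes, the genes most like Fasn were Tkt (r = 0.972), which encodes transketolase, Slc25a1 (0.962), Elovl5 (0.950), Pygl (0.947) and Gm4735 (0.945). Those most like Scd1 were Rbp4 (0.982), which encodes a retinol carrier made by liver and fat, Trf (0.958), Aldh1a7 (0.955), Cdo1 (0.949) and Pygl (0.948). These are ranks of likeness over mice that share the diet groups, so the values are given without a P value. Among the 10 genes themselves Fasn was nearest to Acaca (0.989), Acly (0.977) and Elovl6 (0.974), less near to Scd1 (0.892), and far from Srebf1 (0.243), Me1 (0.116) and Mlxipl (0.093).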

How the data were processed

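Paired-end libraries were made after removal of ribosomal RNA and sequenced on an Illumina NovaSeq, and the submitters' processing notes name fastp, HISAT2 and build GRCm38. The authors counted fragments per transcript with StringTie, so the deposited values are expected counts, which were whole numbers here, and StringTie divides fragments among overlapping transcripts by its own model. The authors also deposited FPKM values, made after TMM scaling. Of 82388 mRNA transcripts, 4 were split over 2 lines of the table and were joined, and no per-sample column was left without a mouse. Counts were summed per gene name. No 2 libraries were identical.

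The main test was edgeR 4.0.16 in R 4.3.3: quasi-likelihood fit with robust dispersions over all 16 mice, TMM, a filter by group (minimum count 10, minimum total count 15), and Benjamini-Hochberg adjustment over 15364 genes, with an adjusted P under 0.05 as a call. A standard error is the log2 fold change divided by the square root of F, intervals are approximate 95% intervals, and CPM uses TMM-scaled library sizes of the mRNA table. The floor of 3 counts covers counting error only. Members, lists and tests were chosen with earlier results of these data known. Named genes were the 10 members, up to 4 genes per list with the smallest P in HFD minus control, Acaca transcripts with a mean count of at least 10, and the 5 genes most correlated with Fasn and with Scd1; other genes named, among them Hacd1, Cpt1b, Mlxip, Elovl7, Srebf2, Scap, Mlx, Usf1 and the second transcripts of Fasn, Srebf1 and Mlxipl, were chosen after their values were seen. Alternatives were DESeq2 1.42.0, RLE factors, no filter, only the groups compared, 12 mice without metformin, the criteria of the study, limma 3.58.1 on log2(FPKM + 1) or log2(FPKM + 0.1), leaving out each mouse, and after seeing the data the 2 on adipocyte RNA. The scripts were tested on simulated data. Coordinates are GRCm38, from the GENCODE and RefSeq annotation. Results on 2 marker genes and the sums that hold them are not reported here.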

Additional observations from a re-analysis of the deposited data

Results flagged for a closer look

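In 3 of 40 groups of 4 mice 1 mouse stood apart from the other 3 by Dixon's criterion, where chance gives about 1 in 20. Scd2 in HFD + RSV mouse 2 stood at 6.54 on the log2 CPM scale, with the other HFD + RSV mice between 5.20 and 5.34. That mouse also had the highest level of Mbp, a myelin gene, of the 16 mice, 32.9 CPM against 6.45 to 27.0 CPM in the others. The part of nerve RNA in its Scd2 level was not tested.

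Elovl6 in HFD + MET mouse 3 stood at 4.17, with the other HFD + MET mice between 0.763 and 1.01. This is the mouse with 5052 CPM of white adipocyte markers and 2683 counts for the Acaca transcript ENSMUST00000020843. Srebf1 in HFD mouse 4 stood at 6.56, with the other HFD mice between 5.99 and 6.08, and that mouse had the highest white adipocyte sum of its group, 1201 CPM.

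Outside the mRNA table, a lncRNA row at the Scd1 locus, NONMMUT034843.2, reached 275592 counts in control mouse 3, the highest of the 4 controls, which ranged from 45849.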

How the results depend on the processing

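Signs of the diet differences were steady for Acaca, Acacb, Acly, Fasn, Scd1, Scd2 and Elovl6, which were lower in HFD in all 25 alternatives, and depended on the setting for Me1, Srebf1 and Mlxipl, whose differences lay near 0. Calls depended on the fit. In HFD minus control 374 genes were called in all, 1544 by DESeq2, 158 without a filter, 1616 without the HFD + MET group, 998 with only the 2 groups compared, 179 by limma on log2(FPKM + 1), 759 by the criteria of the study and 31 with the adipocyte covariate, which left 2 of the 10 lipogenic genes called. In HFD + RSV minus HFD the count was 0, and 8 by DESeq2, 1 with the covariate and 166 by the criteria of the study. In HFD + MET minus HFD it was 2, and 31 by DESeq2, 0 by limma, 0 without control mouse 3 and HFD + MET mouse 3, 1 with only the 2 groups and 271 by the criteria of the study, which called 1 lipogenic gene. In HFD + RSV minus control the 0 lipogenic genes called became 6 by DESeq2, 5 without the HFD + MET group, 4 without those 2 mice, 1 with the covariate and 5 by the criteria of the study, and in HFD + MET minus control the 0 became 4 by DESeq2, 3 without those 2 mice, 3 with the covariate and 5 by the criteria of the study. Apart from those by the criteria of the study, these counts of lipogenic genes against control stand without a share of all genes, so nothing is read from them. The causes of the changes were not tested. Leaving out 1 mouse gave 16 to 1588 genes called in HFD minus control, 0 to 1 in HFD + RSV minus HFD and 0 to 2 in HFD + MET minus HFD, and 1 to 6, 0 to 0 and 0 to 0 lipogenic genes. Against control it gave 0 to 5 lipogenic genes for HFD + RSV and 0 to 4 for HFD + MET, and 0 to 0 between the drug groups. Some leading numbers in the labels recur between groups, but what they stand for was not given, so no paired analysis was made. Depth limits Elovl6, with 23 to 109 counts in most mice on HFD, and the upstream Mlxipl transcript.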

Other observations

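The Scd1 locus held more reads in the lncRNA table than in the mRNA table. NONMMUT034843.2, at chr19:44394455-44397265, is 2811 bases long, and all of them lie in an exon of Scd1. Its counts were between 1.86 and 2.42 times those of Scd1 in every one of the 16 mice, with a median of 2.01. Added to Scd1, on a CPM scale over both tables, the locus stood at 4895, 4680, 15950 and 3239 in controls and at 323, 162, 802 and 967 in HFD mice, which did not overlap, as for Scd1 alone. Whether strand was used in counting was not given in the sources used here, and how the reads of the locus divide between the rows was not tested. In all, 18 lncRNA rows overlapped the loci of the 10 genes, 13 of them with at least 20 counts in some mouse, and 4 lay wholly in exons.

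Other tissue markers moved with the groups as well. Mbp, a myelin gene of Schwann cells, stood at 11.2, 22.0, 27.0 and 12.7 CPM in controls and between 6.45 and 7.83 CPM in HFD mice, without overlap, but did not pass in edgeR (-1.36 ± 0.45, adjusted P = 0.0961) and was called by DESeq2. Erythroid markers stood between 217 and 307 CPM in HFD mice and did not overlap with HFD + RSV mice, between 329 and 860 CPM, or with HFD + MET mice, between 320 and 899 CPM. The sums of endothelial, macrophage and fibroblast markers overlapped between HFD and HFD + RSV mice and between HFD and control mice. Pecam1, an endothelial marker, stood at 76.8 to 95.7 CPM in controls and 60.95 to 65.9 CPM in HFD mice, and neither it nor Cdh5 overlapped. Of 4 endothelial markers, 3 were lower in HFD at an unadjusted P under 0.05 in edgeR, against 24.2% of all genes. None was called in edgeR, and DESeq2 called Pecam1. The part of these cells in the levels above was not tested.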
